A study of Mus musculus with 32 samples.

Results

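The genes described here are 8 transcription factor genes that mark or pattern the anterior-posterior axis of the limb bud, Hand2, Tbx2, Tbx3, Alx4, Pax9, Irx3, Irx5 and Zbtb16. Open chromatin around them was followed in 32 mouse limb bud libraries by ATAC-seq, in which the Tn5 transposase cuts DNA that nucleosomes do not cover. A peak summit was assigned to one of these genes when it lay in the gene body or within 100 kb of it and its nearest protein-coding start belonged to that gene. By this rule, 1407 of the 1234971 summits listed in the 32 libraries belonged to the 8 genes. Summits were merged into intervals of 200 bp, and 168 of the 125532 intervals listed in at least 2 libraries belonged to the 8 genes, 35 to Hand2, 24 to Tbx2, 22 to Tbx3, 15 to Alx4, 20 to Pax9, 19 to Irx3, 15 to Irx5 and 18 to Zbtb16.

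The study examined how the ETS factor ETV2, best known for specifying endothelium and blood, acts in limb bud mesenchyme. The overexpression experiment had 4 groups, WT_Control_A and WT_Control_P with 4 libraries each and Etv2_OE_A and Etv2_OE_P with 3 each. The labels give only the letters A and P, and the methods of the study describe hindlimb buds cut into an anterior and a posterior part. Each number in the labels occurs with both letters, and no source used here says whether A and P of a number came from 1 embryo. Etv2_OE embryos carried HoxB6-Cre, the iHA-Etv2 transgene and ROSA26-STOP-rtTA-IRES-EGFP, so that doxycycline induced HA-tagged ETV2 where Cre had acted, and not every cell of the bud carried it. The sources differ on which of these transgenes the controls lacked and on the stage, which the labels give as E10.5 and the methods place later. FL_GFP_pos and HL_GFP_pos, with 3 libraries each, were cells sorted for EYFP driven by an Etv2 promoter and depleted of CD31, Tie2 and CD45, from forelimb and hindlimb buds at E10.5, with the same 3 numbers in the labels of both. Etv2CKO_posteriorHL (2 libraries, E10.5, posterior hindlimb) and Etv2cKO_E10_25 (5 libraries, E10.25) came from embryos with HoxB6-Cre and Etv2 fl/-, a Cre that acts in the whole hindlimb precursor and partly in the forelimb. LimbWT_10_25 (2 libraries) was wild type at E10.25. The labels name no part of the limb at E10.25, and the study describes posterior hindlimb cells in both groups. HL_E9_5, Anterior_E10_5 and Posterior_E10_5, the last of Shh-EGFP+ cells, had 1 library each and entered no test. Nothing in the labels says that all libraries of a group were separate litters, so p-values measure the spread between these libraries.

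In the limb bud, HAND2 acts in posterior mesenchyme upstream of Shh, and TBX2 and TBX3 are T-box repressors expressed in the limb margins. ALX4 is a paired-type homeodomain factor of anterior mesenchyme that restrains posterior signaling, and PAX9 is a paired-box factor expressed in anterior mesenchyme. IRX3 and IRX5 are Iroquois factors needed early for proximal and anterior skeletal elements, and ZBTB16 (PLZF) is a zinc-finger factor that acts on proximal patterning and on Hox genes.

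Sequencing depth cannot be read from lists of summits, and a missing summit is not evidence of closed chromatin. The lists held 13763 to 54676 summits outside the mitochondrial genome, and the shortest was that of Anterior_E10_5. Every WT_Control_P list (51265 to 54676) was longer than every WT_Control_A list (40945 to 45762). Libraries were therefore compared by a rank score in lists of equal length. It ran from 1 for the best summit of a list down to 0 for an interval that was not among the best 30000 (25000 or 15000 where a shorter list entered). Promoters of limb mesenchyme (Prrx1, Prrx2, Twist1, Msx1, Lhx9) were listed for 3 to 5 of 5 genes in the 14 libraries of the overexpression experiment and for 1 in Anterior_E10_5. Those of hindlimb genes (Pitx1, Tbx4, Isl1) were listed for 1 to 3 of 3 in each library. The Tbx5 promoter, which marks the forelimb, was listed in no library, FL_GFP_pos included. The endothelial Cdh5 and Pecam1 and the blood genes Ptprc, Gata1 and Spi1 were likewise listed in none, whereas Kdr was listed in every library but Anterior_E10_5. The other endothelial and blood promoters were listed in part, Erg in the 8 control libraries, 3 of 3 FL_GFP_pos and 1 of 3 HL_GFP_pos, Tek in 1 library of each of 4 groups, and Tal1 in 5 of 5 Etv2cKO_E10_25 and 2 of 2 LimbWT_10_25. Of the ectodermal promoters (Trp63, Epcam, Cdh1, Esrp1), 0 to 2 of 4 were listed in WT_Control_A and 2 to 3 in WT_Control_P, 1 to 2 in Etv2_OE_A and 0 to 1 in Etv2_OE_P, and 1 to 3 in FL_GFP_pos and 0 to 1 in HL_GFP_pos. Their part in the results was not tested. An interval in or within 1 kb of Etv2 was listed in 0 of 5 and 0 of 2 knockout libraries at E10.25 and E10.5, in 2 of 2 LimbWT_10_25 libraries and in 1 of 3 HL_GFP_pos libraries. A summit list does not show whether the gene was deleted.

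Sequences of the intervals on which the results turn follow, read 5′ to 3′ on the plus strand of GRCm38 (mm10), with the words that were searched for in capitals. The first differed between A and P, the next 3 were the most widely listed distal intervals of the Irx5, Zbtb16 and Alx4 loci, and the others were called in another comparison or lie beside one that was.
Pax9 3′ interval, chr12:56718541-56718740, in an intron of Slc25a21: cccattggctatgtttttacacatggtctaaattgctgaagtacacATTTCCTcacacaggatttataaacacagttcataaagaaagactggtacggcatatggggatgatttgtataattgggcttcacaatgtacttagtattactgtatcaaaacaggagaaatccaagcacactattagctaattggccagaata
Irx5 upstream interval, chr8:92356101-92356300, between genes: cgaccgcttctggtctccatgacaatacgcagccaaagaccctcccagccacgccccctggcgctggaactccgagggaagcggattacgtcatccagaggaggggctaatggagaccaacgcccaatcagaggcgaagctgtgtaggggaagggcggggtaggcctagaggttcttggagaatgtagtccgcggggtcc
Zbtb16 intronic interval, chr9:48823059-48823258: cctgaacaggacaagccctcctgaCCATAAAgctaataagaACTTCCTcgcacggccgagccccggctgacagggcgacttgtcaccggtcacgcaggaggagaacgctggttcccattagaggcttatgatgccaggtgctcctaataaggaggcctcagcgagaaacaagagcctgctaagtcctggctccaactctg
Alx4 upstream interval, chr2:93625150-93625349, between genes: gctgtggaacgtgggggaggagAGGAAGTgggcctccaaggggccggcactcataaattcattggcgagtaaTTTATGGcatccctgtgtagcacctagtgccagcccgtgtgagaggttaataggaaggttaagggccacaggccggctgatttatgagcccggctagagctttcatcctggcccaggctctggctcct
Hand2 upstream interval, chr8:57312807-57313006, in an intron of Hand2os1: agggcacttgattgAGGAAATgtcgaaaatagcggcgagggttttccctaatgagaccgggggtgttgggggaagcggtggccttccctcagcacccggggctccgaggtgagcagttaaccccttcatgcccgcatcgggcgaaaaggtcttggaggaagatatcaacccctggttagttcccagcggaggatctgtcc
Hand2 3′ interval 1, chr8:57333980-57334179, in an exon of the noncoding Gm34030: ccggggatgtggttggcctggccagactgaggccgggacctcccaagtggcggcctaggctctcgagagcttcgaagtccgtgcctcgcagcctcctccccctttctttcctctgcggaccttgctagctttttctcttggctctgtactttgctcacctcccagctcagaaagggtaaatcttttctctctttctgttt
Hand2 3′ interval 2, chr8:57334261-57334460, in an exon of the noncoding Gm34030: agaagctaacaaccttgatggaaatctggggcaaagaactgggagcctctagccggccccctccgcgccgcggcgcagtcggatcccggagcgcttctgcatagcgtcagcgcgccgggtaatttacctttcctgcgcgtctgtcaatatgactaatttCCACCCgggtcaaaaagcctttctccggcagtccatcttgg
Alx4 downstream interval, chr2:93727981-93728180, in an intron of Ext2: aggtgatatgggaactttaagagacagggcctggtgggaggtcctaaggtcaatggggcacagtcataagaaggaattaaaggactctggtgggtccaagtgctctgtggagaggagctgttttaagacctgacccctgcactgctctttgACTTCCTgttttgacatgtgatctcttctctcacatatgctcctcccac
Irx5 downstream interval, chr8:92437085-92437284, between genes: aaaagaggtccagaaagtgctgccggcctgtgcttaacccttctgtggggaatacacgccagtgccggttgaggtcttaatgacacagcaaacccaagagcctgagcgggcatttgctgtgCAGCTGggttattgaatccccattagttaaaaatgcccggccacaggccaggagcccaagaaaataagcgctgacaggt
Irx3 downstream interval, chr8:91713909-91714108, in an intron of Gm36325: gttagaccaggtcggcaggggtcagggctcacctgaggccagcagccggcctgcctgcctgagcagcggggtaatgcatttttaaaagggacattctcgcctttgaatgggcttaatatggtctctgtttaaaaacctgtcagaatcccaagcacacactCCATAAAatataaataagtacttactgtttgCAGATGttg

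The words were searched for on both strands, and none of them contains another. They stood for ETS factors (first word AGGAAGT, and a second one, AGGAAAT), for T-box factors (GGTGTG), for GLI factors (CCACCC), for GATA factors (AGATAA), for the E-boxes bound by HAND and TWIST proteins (first CAGCTG, and then also CATCTG), for the HOX13 group (TTTATNG) and for LIM-homeodomain factors (TAATTA). The first ETS word, AGGAAGT, occurred in 12 of the 168 intervals (7.14%) and in 5.56% of all intervals, and AGGAAAT in 10 (5.95%) and in 6.86% of all. GGTGTG was found in 14.3% of the intervals of the 8 genes against 11.8% of all, and CCACCC in 23.2% against 18.1%. TTTATNG was found in 16.1% against 13.1%, AGATAA in 8.93% against 6.99%, CAGCTG in 13.1% against 15.7%, CATCTG in 16.7% against 18.03% and TAATTA in 4.17% against 7.91%. The Pax9 3′ interval held 1 AGGAAAT on the minus strand, the Zbtb16 intronic interval 1 AGGAAGT on the minus strand, and the Irx5 upstream interval none of the words. These are matches of letters in a window and not binding sites.

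The intervals of the 8 genes were mostly distal. Of the 168, 17 lay within 1 kb of a start (10.1%, against 21.5% of all intervals), and their median distance to a start was 27803 bp (31461 bp over all intervals). The median GC content was 52.2%, and 50.5% over all intervals. Of the 168, 13 intervals were listed in 24 or more of the 32 libraries (7.74%, against 11.1% of all intervals). Hand2 and Zbtb16 had 4 of these each, Irx5 had 2, Alx4, Pax9 and Irx3 had 1 each, and Tbx2 and Tbx3 had none. Summits of 1 site can fall into neighboring intervals, which lowers such counts, as at the Tbx3 promoter below.

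**Figure D1:**
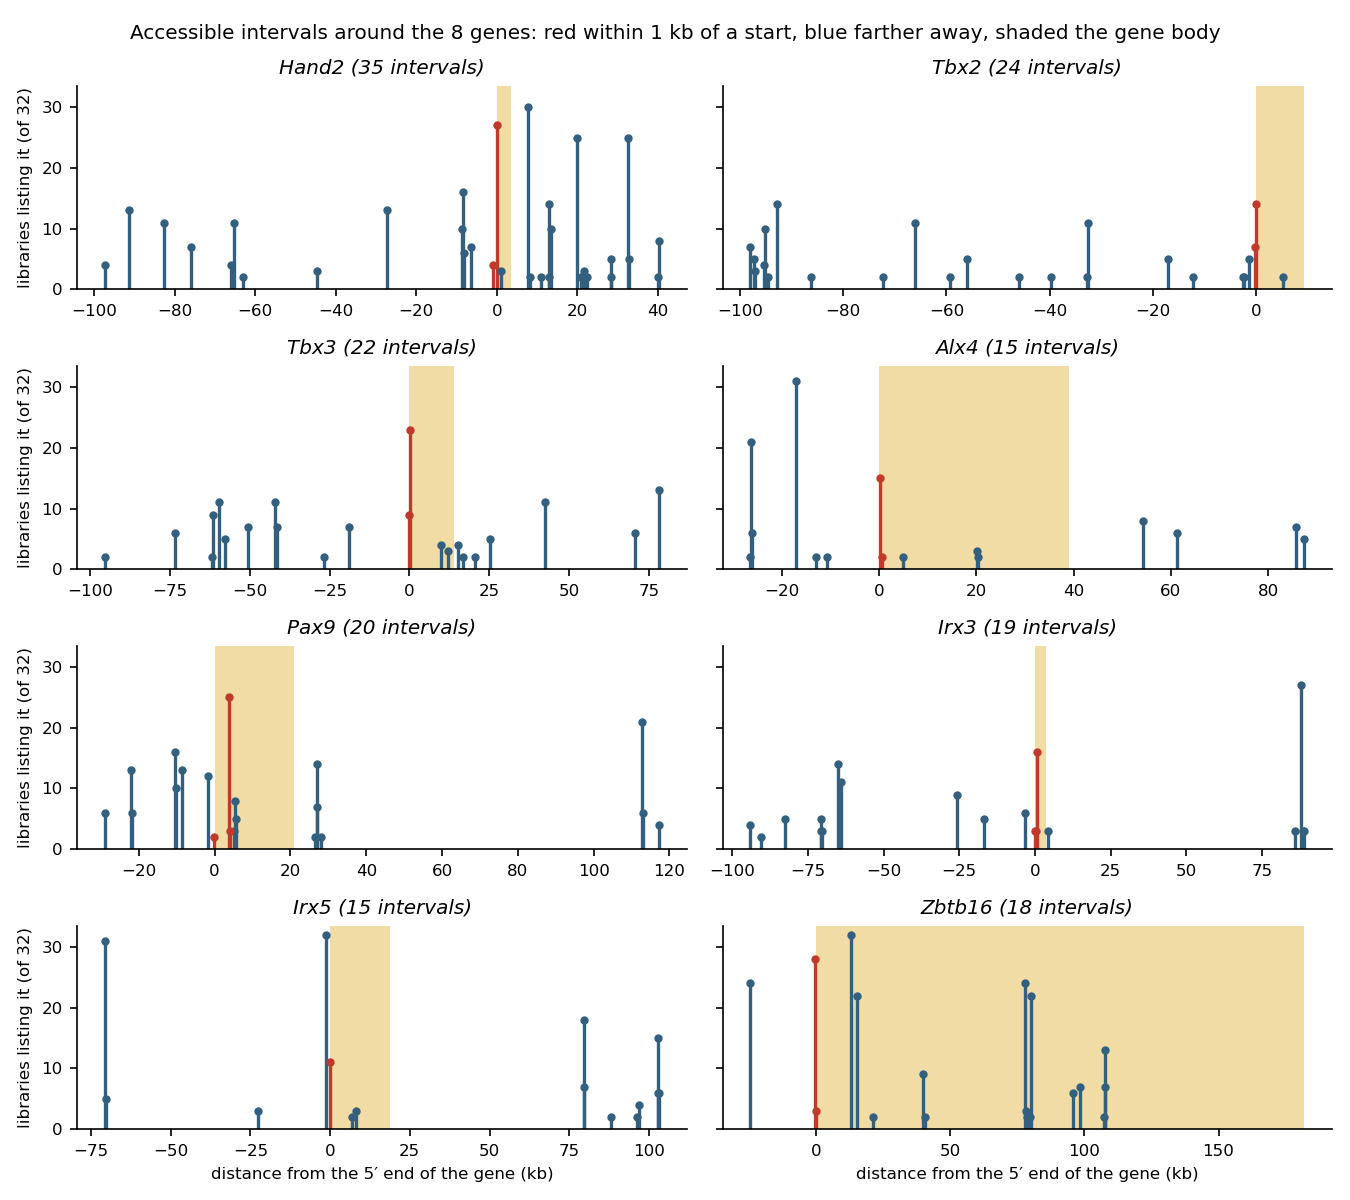
Distance of each interval from the 5′ end of its gene (x axis, kb, positive in the direction of transcription) and the number of the 32 libraries that list it (y axis), with 1 panel a gene. The Zbtb16 intervals lay almost all in the gene body, and the 2 intervals listed in all 32 libraries belonged to Irx5 and Zbtb16.

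The widely listed intervals lay at different places in each locus. At Zbtb16, a gene of 181926 bp on chr9 (48654297 to 48836222, minus strand), 16 of 18 intervals lay in the gene body and all 16 were intronic. The intronic interval 12786 bp from a start was listed in all 32 libraries, and the promoter in 28. At Hand2, a short gene on chr8 (57320983 to 57324633, plus strand), 19 of 35 intervals lay downstream and 15 upstream. Its promoter interval, 5 bp from the start and in an exon of Hand2os1, was listed in 27 libraries, and the intervals 7713, 20000 and 32754 bp from the start on the 3′ side in 30, 25 and 25. At Tbx2, whose 5′ side is taken up by Bcas3, 20 of 24 intervals were intronic, mainly in Bcas3, and none was listed in more than 14 libraries. The Tbx3 promoter was listed in 23 libraries, and no distal Tbx3 interval in more than 13. An interval centered 215 bp from that of the Tbx3 promoter was listed in 9 libraries. With intervals of 500 bp, every library of the groups that were compared listed the Tbx3 promoter.

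At the Irx5 locus the promoter interval itself was listed in 11 libraries, in none of the 14 of the overexpression experiment, whereas the interval 1424 bp upstream of the start was listed in all 32. That interval had a mean rank score of 0.754 ± 0.112 (SD, n = 4) in WT_Control_A and 0.734 ± 0.0484 (SD, n = 4) in WT_Control_P. A second Irx5 interval, 70598 bp from the start, was listed in 31 libraries. Irx3, which lies on the same chromosome in the opposite orientation, had a promoter interval listed in 16 libraries and a downstream interval, 87906 bp from the start, in 27. Alx4 had its promoter listed in 15 libraries and the interval 17134 bp upstream in 31. The Pax9 promoter was listed in 25 libraries, in all of the WT_Control_A, WT_Control_P and Etv2_OE_A libraries and in 2 of 3 Etv2_OE_P libraries.

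**Figure D2:**
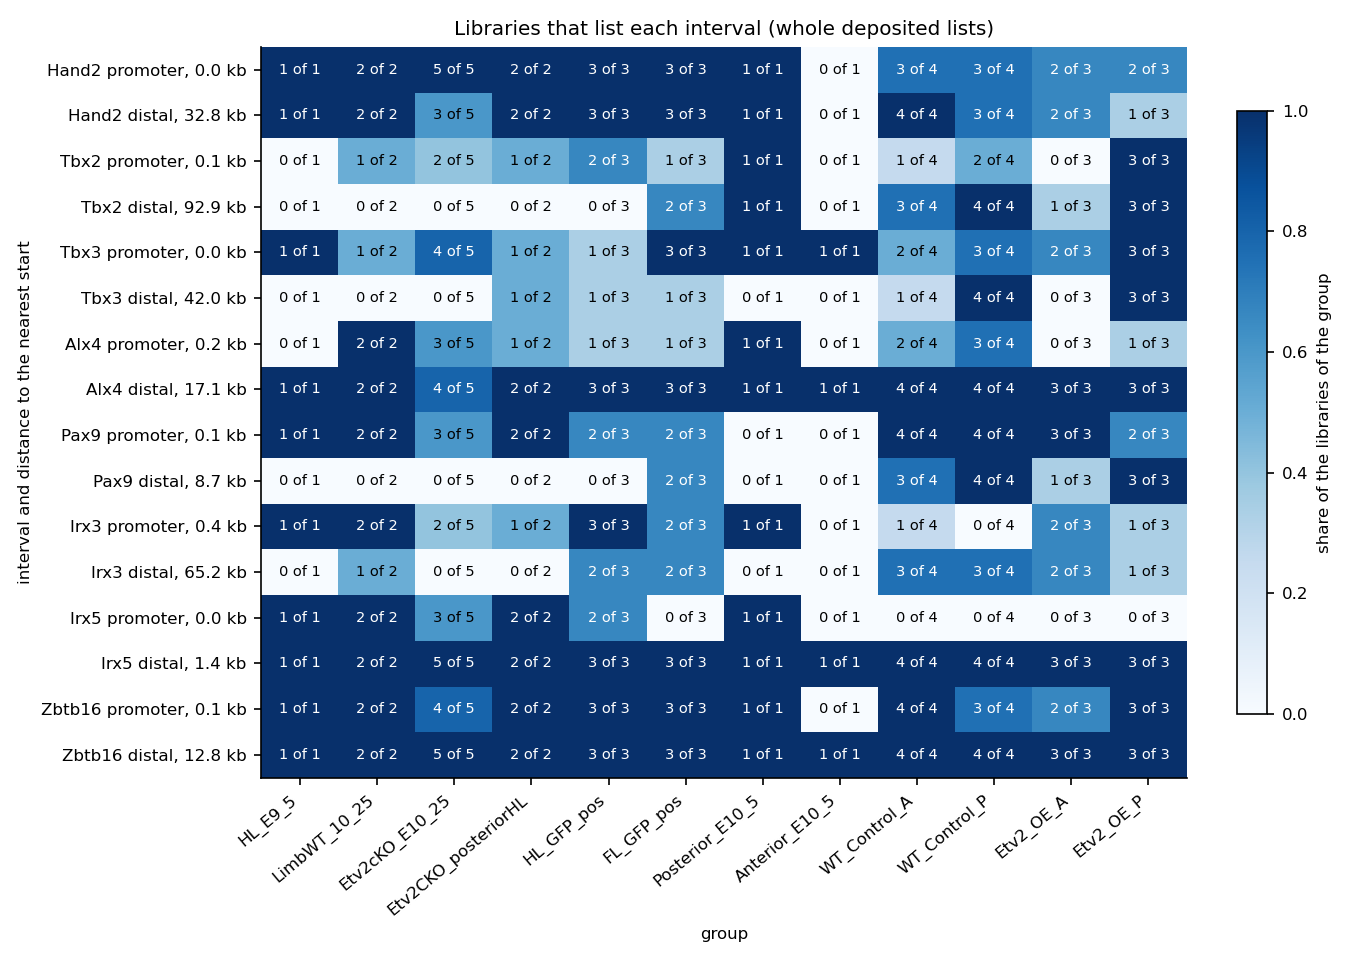
Number of libraries that list the best-ranked promoter interval and the best-ranked distal interval of each gene, by group (columns), with the shade giving the share of the libraries of the group, in the whole deposited lists. The Irx5 interval upstream and the intronic Zbtb16 interval are listed in every library, and Anterior_E10_5, with the shortest list, lists few others.

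The groups of 1 library were not tested. Posterior_E10_5 held 55 summits of the 8 genes among 45346, HL_E9_5 41 among 36947 and Anterior_E10_5 8 among 13763, which are 12.1, 11.1 and 5.81 per 10000 summits. In Anterior_E10_5, Irx5 and Alx4 had 2 of these summits each, Hand2, Tbx3, Irx3 and Zbtb16 had 1 each, and Tbx2 and Pax9 had none. Posterior_E10_5 listed 13 Tbx3 summits, against 1 to 9 in the 8 control libraries, and Etv2cKO_E10_25 replicate 3 listed 13 as well.

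The first question was which of these places differ between A and P of control hindlimbs. Of 43987 intervals tested by limma, 804 differed at an adjusted p of 0.05 or less (1.83%), 361 higher in A and 443 higher in P. Among the 42 tested intervals of the 8 genes, 1 differed (2.38%), which is near that background. It lay at Pax9, chr12:56718541-56718740, 23002 bp from the nearest start on the 3′ side of the gene, inside an intron of the neighboring Slc25a21. Its rank scores were 0.764, 0.591, 0.490 and 0.795 in the 4 WT_Control_A libraries and 0 in each of the 4 WT_Control_P libraries. The groups did not overlap, and the difference was 0.66 ± 0.0816 (SE, adjusted p = 0.0015). The interval entered the test through A libraries, where it was high. In the whole lists, WT_Control_P libraries 1 and 2 did list it, at ranks 32956 and 31439, and the other 2 listed an interval centered 201 bp away at ranks 26594 and 29855. With intervals of 500 bp, which take in both, the scores of WT_Control_P were 0, 0, 0.114 and 0.005, and the difference was 0.63 ± 0.0885 (SE, adjusted p = 0.00259). When the lists were cut to 0.5 of their equal length, the difference was 0.33 and did not pass (adjusted p = 0.437).

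The same Pax9 interval also differed in Etv2_OE, in libraries with other numbers. In Etv2_OE, 627 of 43987 intervals differed between A and P (1.43%), and 2 of the 42 intervals of the 8 genes. The Pax9 scores were 0.592, 0.858 and 0.854 in Etv2_OE_A and 0, 0.212 and 0 in Etv2_OE_P. The 3 A libraries were above the 3 P libraries, by 0.70 ± 0.0942 (SE, adjusted p = 0.00389). The change in this A and P difference with Etv2 overexpression was 0.04 ± 0.125 (SE, adjusted p = 1). In the whole lists of Etv2_OE the difference was 0.58 and did not pass (adjusted p = 0.068). With intervals of 500 bp, Etv2_OE_P scored 0, 0.212 and 0.319, and the difference in Etv2_OE was 0.59 (adjusted p = 0.0113). In FL_GFP_pos the Pax9 interval scored 0.703, 0.537 and 0, in HL_GFP_pos 0.344, 0 and 0, and it was listed in none of the Etv2 knockout libraries, LimbWT_10_25, HL_E9_5, Posterior_E10_5 or Anterior_E10_5. As an interval of 500 bp it scored 0.703, 0.537 and 0.35 in FL_GFP_pos and 0.344, 0 and 0.142 in HL_GFP_pos. At that length 1 of 2 LimbWT_10_25 libraries listed it.

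**Figure D3:**
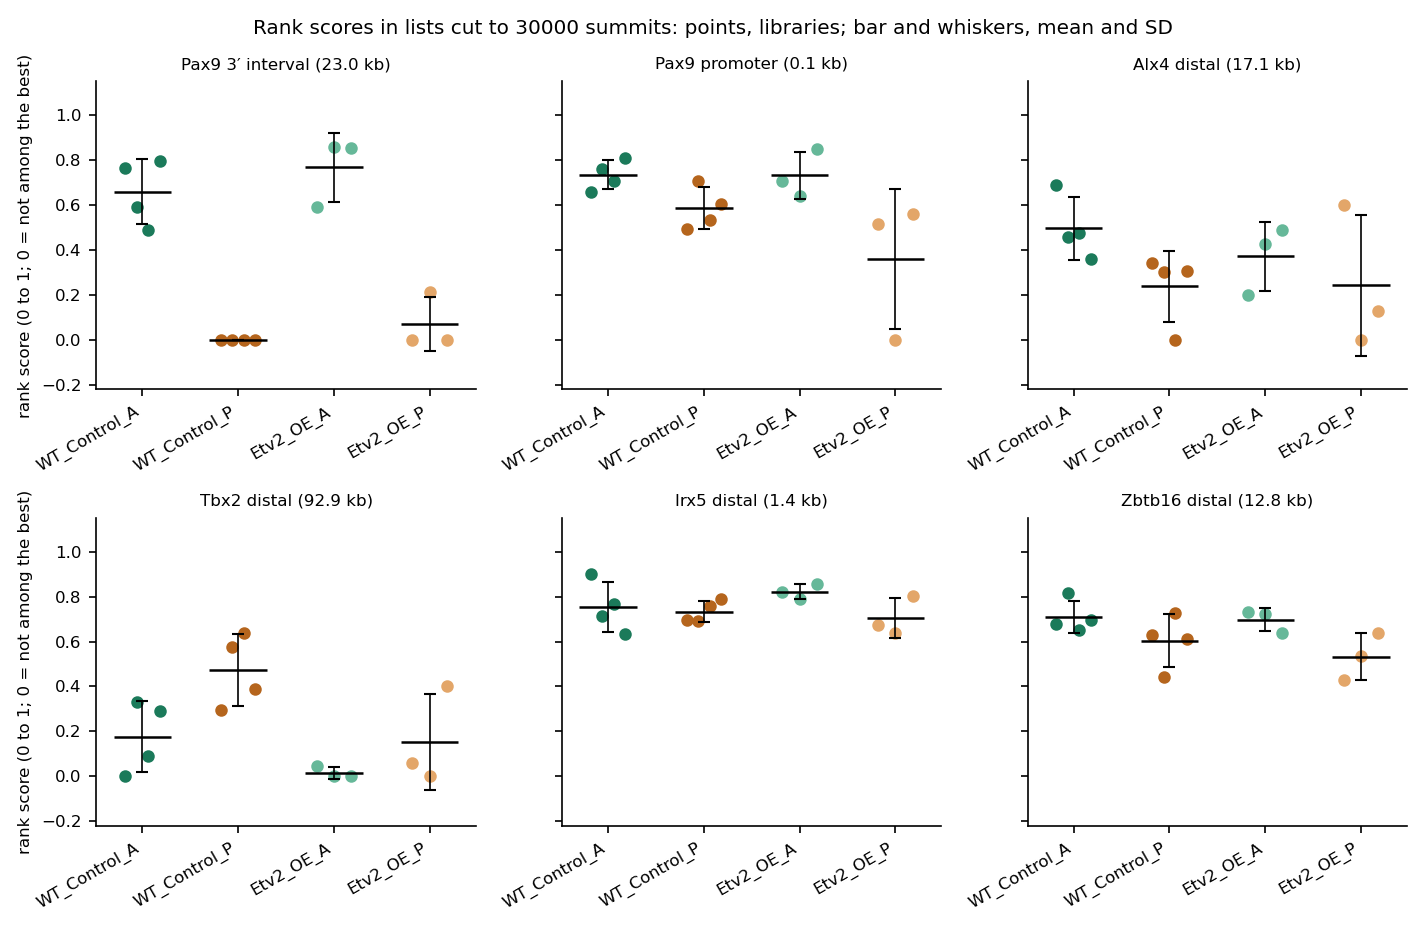
Rank scores (y axis, 0 to 1, in lists cut to 30000 summits) of 6 named intervals in the 14 libraries of the overexpression experiment, by group (x axis), with points for libraries and the bar and whiskers for the mean and SD. The Pax9 3′ interval of 200 bp is at 0.490 or above in every A library of both genotypes and at 0.212 or below in every P library, and the Irx5 and Zbtb16 intervals overlap between A and P of the controls.

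The second interval called in Etv2_OE lay 8076 bp upstream of Hand2, in an intron of Hand2os1. It scored 0.187, 0.207 and 0.455 in Etv2_OE_A and 0 in all Etv2_OE_P and all control libraries (0.28 ± 0.0593 (SE), adjusted p = 0.0402). It entered the test through the Etv2_OE_A libraries alone, where it was high. A neighboring interval centered 209 bp away showed the reverse, with 0.596, 0, 0 and 0.558 in WT_Control_A and 0 in all Etv2_OE_A libraries. Joined into 1 interval of 500 bp, the site scored 0.596, 0, 0.522 and 0.558 in WT_Control_A, 0, 0.165, 0 and 0.053 in WT_Control_P, 0.187, 0.207 and 0.455 in Etv2_OE_A and 0, 0.169 and 0.159 in Etv2_OE_P. The joined site was not called in controls (0.36 ± 0.118 (SE), adjusted p = 0.157) or in Etv2_OE (0.17 ± 0.137 (SE), adjusted p = 0.646). Leaving out any 1 of the 14 libraries left the Pax9 interval as the single call in Etv2_OE.

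No other interval of the 8 genes passed between control A and P. The Pax9 promoter, chr12:56695485-56695684, scored 0.660, 0.762, 0.708 and 0.811 in WT_Control_A and 0.493, 0.707, 0.535 and 0.605 in WT_Control_P. The Alx4 upstream interval scored 0.691, 0.456, 0.475 and 0.362 in WT_Control_A and 0.341, 0.303, 0 and 0.307 in WT_Control_P, without overlap between the groups, and did not pass (0.26 ± 0.13 (SE), adjusted p = 0.474). At Pax9 the best distal interval by control rank, 8701 bp from a start and between genes, leaned to P, with 0, 0.201, 0.236 and 0.060 in WT_Control_A and 0.260, 0.330, 0.299 and 0.627 in WT_Control_P (-0.25 ± 0.126 (SE), adjusted p = 0.462). Intervals of 1 locus thus had their higher scores on opposite sides. On the posterior side, the best distal Tbx2 interval, in an intron of Bcas3 92880 bp from the start, scored 0, 0.329, 0.089 and 0.291 in WT_Control_A and 0.295, 0.574, 0.640 and 0.391 in WT_Control_P. Its P libraries were mostly higher, by 0.30 ± 0.106 (SE), and the adjusted p was 0.246. The Zbtb16 intronic interval, at 0.71 ± 0.0714 (SD, n = 4) in WT_Control_A and 0.603 ± 0.118 (SD, n = 4) in WT_Control_P, did not pass either (adjusted p = 0.579). In Etv2_OE it scored 0.731, 0.724 and 0.639 in A and 0.428, 0.535 and 0.636 in P, barely without overlap (0.16 ± 0.0758 (SE), adjusted p = 0.426). The best distal Hand2 interval, 32754 bp from the start, scored 0.681, 0.703, 0.853 and 0.645 in WT_Control_A and 0, 0.709, 0.642 and 0.836 in WT_Control_P, which overlapped. Over the 42 intervals, 24 had a higher mean in A and 18 in P, with a median difference of 0.01 against 0 over all intervals. The share higher in A was 57.1%, against 49.9% of all intervals, and in the whole lists 32 of 79 were higher in A. For the whole lists the share of all intervals higher in A was not counted, and 18.8% of all calls there were higher in A.

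**Figure D4:**
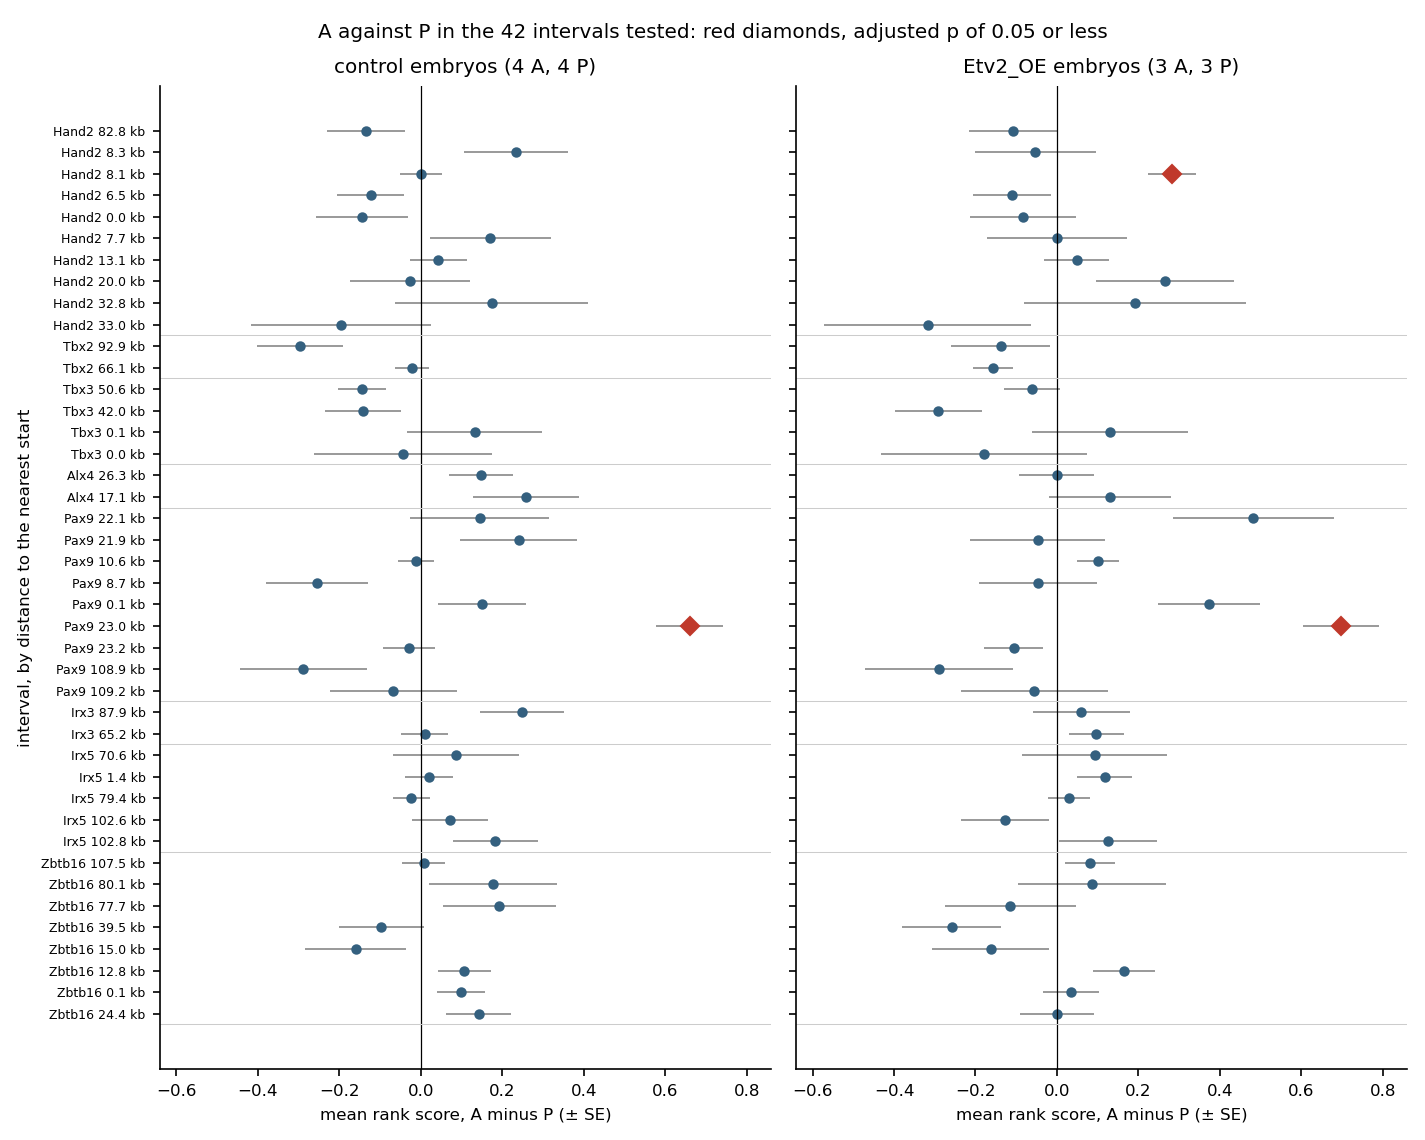
Difference in mean rank score between A and P (x axis, with the SE) for the 42 tested intervals of the 8 genes (y axis, by gene and distance to the nearest start), in control embryos on the left and Etv2_OE embryos on the right. Red diamonds mark the 1 and 2 intervals at an adjusted p of 0.05 or less, of which the Pax9 interval at 23.0 kb is shared.

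Presence was counted next, first in lists of equal length. An interval listed in all 4 A libraries and in no P library was found for 397 of the 28718 that could pass (1.38%), and for 1 of the 21 of the 8 genes, the Pax9 interval. The reverse, all P and no A, was found for 505 (1.76%) and for none of the 8 genes. In the whole lists, 307 of 43882 intervals (0.7%) and none of the 43 of the 8 genes were listed in all A and no P libraries. There, 1334 intervals (3.04%) and 2 of those of the 8 genes were listed in all P and no A libraries. These 2, named after their values were seen, lay 17123 bp upstream of Tbx2 and in an intron of Zbtb16, 14986 bp from a start. The Tbx2 interval stood at ranks 43080, 32813, 44199 and 53118 in the P libraries, all beyond the length of equal lists. The Zbtb16 interval stood at ranks 30213, 50641, 10816 and 41038 in the P libraries, so that 3 of the 4 summits lay beyond the length of equal lists.

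Each gene was then summed over its intervals. The gene score, the sum of the rank scores of the intervals of a gene, differed between control A and P for 63 of 15087 genes (0.418%), 21 higher in A and 42 in P, and in Etv2_OE for 55 (0.365%). None of the 8 genes passed in either, and by unadjusted p 3 of the 8 in controls and 3 in Etv2_OE were under 0.05. The share of all genes under that unadjusted p was not counted, so these 2 counts have no background. Pax9 scored 2.05, 2.52, 2.56 and 2.33 in WT_Control_A and 1.28, 1.72, 1.56 and 2.29 in WT_Control_P. In A, 3 of 4 libraries were above the highest P library, and the difference was 0.65 ± 0.207 (SE, adjusted p = 0.245). In Etv2_OE, Pax9 scored 3.01, 2.48 and 2.55 in A and 1.70, 1.29 and 1.56 in P, which did not overlap and differed by 1.17 ± 0.239 (SE, adjusted p = 0.0688). With only intervals within 25 kb, the Pax9 score passed in controls (adjusted p = 0.0371) and in Etv2_OE (adjusted p = 0.00728), among 61 and 42 genes that passed in all. In the whole lists the Pax9 score did not pass. The limma difference there was 0.31 in controls (adjusted p = 0.66) and 0.89 in Etv2_OE (adjusted p = 0.41).

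Tbx2, a repressor of the limb margins, had its higher scores in P. Its score was 0, 0.329, 0.089 and 0.291 in WT_Control_A and 0.295, 0.574, 0.640 and 0.475 in WT_Control_P. The groups overlapped slightly, and the difference of -0.32 ± 0.0888 (SE) had an adjusted p of 0.169. In Etv2_OE it was 0.0699, 0.0895 and 0 in A and 0.339, 0.429 and 0.523 in P, without overlap (-0.38 ± 0.103 (SE), adjusted p = 0.184). Alx4 scored 1.13, 0.456, 0.616 and 0.600 in WT_Control_A and 0.341, 0.303, 0.170 and 0.328 in WT_Control_P, without overlap (0.41 ± 0.152 (SE), adjusted p = 0.34), but its Etv2_OE groups overlapped. In the whole lists the Alx4 difference in controls had the opposite sign, at -0.17 by limma (adjusted p = 0.83). Hand2, the posterior activator, had scores of 1.47 to 2.35 in WT_Control_A and 1.58 to 2.03 in WT_Control_P, which overlapped. Tbx3, Irx3, Irx5 and Zbtb16 also had overlapping control groups.

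The scores were read against list length, because every control P list was longer. In the whole lists, 1051 of 16234 genes passed in controls (6.47%), of which 26 were higher in A and all others in P, with a median difference over all genes of -0.12. There, 3 of the 8 genes passed, all higher in P. They were Tbx3 (-1.85 ± 0.26 (SE), adjusted p = 0.0038), Tbx2 (-1.14 ± 0.204 (SE), adjusted p = 0.0101) and Hand2 (-1.86 ± 0.478 (SE), adjusted p = 0.0424). In Etv2_OE, 67 genes passed in the whole lists (0.413%), and none of the 8. The Tbx3 summits behind this numbered 3, 3, 1 and 1 in WT_Control_A and 7, 5, 9 and 8 in WT_Control_P, and 1, 1 and 2 in Etv2_OE_A and 5, 4 and 3 in Etv2_OE_P. A and P did not overlap in either genotype. The parts of list length and of the position in the bud in these 3 calls cannot be told apart in these lists. The Tbx3 interval 41990 bp upstream, in introns of Tbx3os1 and Gm16063, was called in the whole lists in controls (-0.43, adjusted p = 0.014) and in Etv2_OE (-0.48, adjusted p = 0.0383). It was at 0 in all 7 A libraries of equal length, at 0, 0.153, 0.415 and 0 in WT_Control_P and at 0.261, 0.490 and 0.123 in Etv2_OE_P.

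Of 32 other genes of anterior-posterior patterning, among them Ptch1, Gli3 and Grem1, 28 were tested, and Shh, Fgf4, Hoxd11 and Hoxd13 were not. In controls, 1 passed, Lhx9, a LIM-homeodomain gene of anterior and distal mesenchyme, with a mean gene score of 1.77 in A and 0.603 in P (1.17 ± 0.205 (SE), adjusted p = 0.0363). In Etv2_OE, 1 passed, Hoxd12, a 5′ Hoxd gene of posterior and distal mesenchyme, at 0 in A and 0.238 in P (adjusted p = 0.0326). It was named after its value was seen. Over all genes, 0.418% passed in controls and 0.365% in Etv2_OE. Whether Lhx9 and Hoxd12 also passed in the alternatives was not recorded. The median difference of the list was 0.08 in controls and 0.06 in Etv2_OE, against 0 and 0.0021 over all genes.

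None of the tested intervals of the 8 genes passed between Etv2_OE and control. Against controls, 42 of 43987 intervals passed in A (0.0955%) and 30 in P (0.0682%), and 0 of the 42 of the 8 genes by limma in both, with 2 at an unadjusted p under 0.05 in each. The change in the A and P difference passed for 22 intervals (0.05%), and for 0 of the 42 of the 8 genes by limma, with 1 at an unadjusted p under 0.05. The share of all intervals under that unadjusted p was not counted. The Irx5 upstream interval scored 0.819, 0.790 and 0.857 in Etv2_OE_A against 0.635 to 0.900 in WT_Control_A, and the Zbtb16 intronic interval 0.731, 0.724 and 0.639 against 0.652 to 0.814. In the whole lists, the Hand2 interval 8076 bp upstream passed in A (0.39, adjusted p = 0.0242), at the site described above whose neighbor showed the reverse.

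Sorted forelimb and hindlimb cells were compared next. FL_GFP_pos and HL_GFP_pos differed in 107 of 28916 intervals (0.37%) and in 0 of 30 of the 8 genes by limma, with 5 at an unadjusted p under 0.05. Of these 5, 4 lay at Hand2 and 1 at Pax9, and they had the higher mean in HL_GFP_pos. How many of all intervals were under that unadjusted p was not counted. With intervals of 500 bp, 2 Pax9 intervals at an unadjusted p under 0.05 had the higher mean in FL_GFP_pos, by 0.47 and 0.37, and neither passed (adjusted p = 0.372 and 0.499). At Hand2 3′ interval 1, HL_GFP_pos scored 0.596, 0.443 and 0.565 and FL_GFP_pos 0.150, 0 and 0 (-0.48 ± 0.083 (SE), adjusted p = 0.119). Hand2 3′ interval 2, centered 281 bp away, showed the opposite, with 0, 0 and 0 in HL_GFP_pos and 0, 0.297 and 0.386 in FL_GFP_pos. As 1 interval of 500 bp, the site scored 0.596, 0.443 and 0.565 in HL_GFP_pos and 0.150, 0.297 and 0.386 in FL_GFP_pos. The 107 calls over all intervals fell to 0 with the shared number as a block, with intervals of 500 bp, with 0.5 of the equal length and without any 1 of the 6 libraries.

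Sorted hindlimb cells were then set against knockout hindlimb cells. HL_GFP_pos and Etv2CKO_posteriorHL differed in 1423 of 30292 intervals (4.7%), and in 3 of 40 of the 8 genes (7.5%). Sorting and genotype cannot be told apart here, since HL_GFP_pos cells were sorted and the study describes the E10.5 knockout cells as unsorted. The Alx4 downstream interval, 85693 bp from the start in an intron of Ext2, scored 0.033, 0 and 0 in HL_GFP_pos and 0.888 and 0.671 in the knockout, a difference of -0.77 ± 0.0893 (SE, adjusted p = 0.0248). The Irx5 downstream interval, 79436 bp from the start, was the reverse, at 0.604, 0.434 and 0.493 in HL_GFP_pos and 0 in both knockout libraries (0.51 ± 0.0793 (SE), adjusted p = 0.044). Muscle progenitor promoters (Pax3, Lbx1, Myf5) were listed for 2 to 3 of 3 genes in HL_GFP_pos and for none in the knockout, and their part in these results was not tested.

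The third call was Hand2 3′ interval 2, at 0 in the 3 HL_GFP_pos libraries and at 0.767 and 0.758 in the knockout (-0.76 ± 0.0597 (SE), adjusted p = 0.019). Hand2 3′ interval 1 stood at 0.516, 0.331 and 0.478 in HL_GFP_pos and at 0 in the knockout. The centers of these 2 intervals lay 281 bp apart, and the distance between the summits of the 2 groups was not measured. In 1 interval of 500 bp the scores were 0.516, 0.331 and 0.478 in HL_GFP_pos against 0.767 and 0.758 in the knockout (-0.32 ± 0.0813 (SE), adjusted p = 0.116). The 2 knockout libraries were above the 3 others, without overlap. In the same comparison the Hand2 promoter scored 0.420, 0.455 and 0.221 in HL_GFP_pos and 0.676 and 0.290 in the knockout, which overlapped. Leaving out HL_GFP_pos 1 or 2 or either knockout library left no call among the 8 genes and none among all intervals. Without HL_GFP_pos 3 the Alx4 and Irx5 calls were lost (adjusted p = 0.0557 and 0.0724), and 2 Hand2 intervals passed, 3′ interval 2 (adjusted p = 0.0419) and 1 not called with all libraries (adjusted p = 0.0473).

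At E10.25, 491 of 20809 intervals differed between Etv2cKO_E10_25 and LimbWT_10_25 (2.36%), 57 higher in the knockout and 434 higher in the wild type, and 1 of 28 of the 8 genes (3.57%). The Irx3 downstream interval, in an intron of Gm36325, scored 0.631, 0.508, 0.402, 0.660 and 0.590 in the knockout and 0 in both wild-type libraries (0.56 ± 0.0825 (SE), adjusted p = 0.0224). Both wild-type libraries did list it, below their best 15000 summits, and in the whole lists the difference was 0.19 and the adjusted p 0.61. The call was also lost without knockout library 1 or 5 or either wild-type library (adjusted p = 0.0626 to 0.351). Of the 28 intervals, 24 had the higher mean in the knockout (85.7%, against 48.9% of all intervals), and 33 of 66 in the whole lists. For the whole lists the share of all intervals was not counted, and 2.28% of all calls there were higher in the knockout. Lists of knockout libraries 2 and 4 were short, at 15626 and 19734 summits.

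The Zbtb16 intronic interval, listed in all 7 of these libraries, scored 0.685, 0.387, 0.396, 0.570 and 0.557 in the knockout and 0.146 and 0 in the wild type, without overlap, and did not pass (0.45 ± 0.101 (SE), adjusted p = 0.0972). The wild-type ranks were 12811 of 43566 summits and 15716 of 34051, and that of knockout library 2 was 9194 of 15626. Relative to the length of the whole lists, the groups thus overlapped. The scores that follow are also of lists cut to 15000 summits. The Tbx3 promoter in 1 interval of 500 bp scored 0.673 to 0.917 in the knockout and 0.272 and 0.442 in the wild type (0.41 ± 0.0844 (SE), adjusted p = 0.0583). Joined into 1 interval of 500 bp, the Hand2 3′ site scored 0.381, 0.629, 0.389, 0.631 and 0.632 in the knockout and 0.101 and 0.075 in the wild type, again without overlap (0.44 ± 0.0958 (SE), adjusted p = 0.0669). The Irx5 upstream interval scored 0.746 to 0.862 in the knockout and 0.650 and 0.825 in the wild type, which overlapped.

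**Figure D5:**
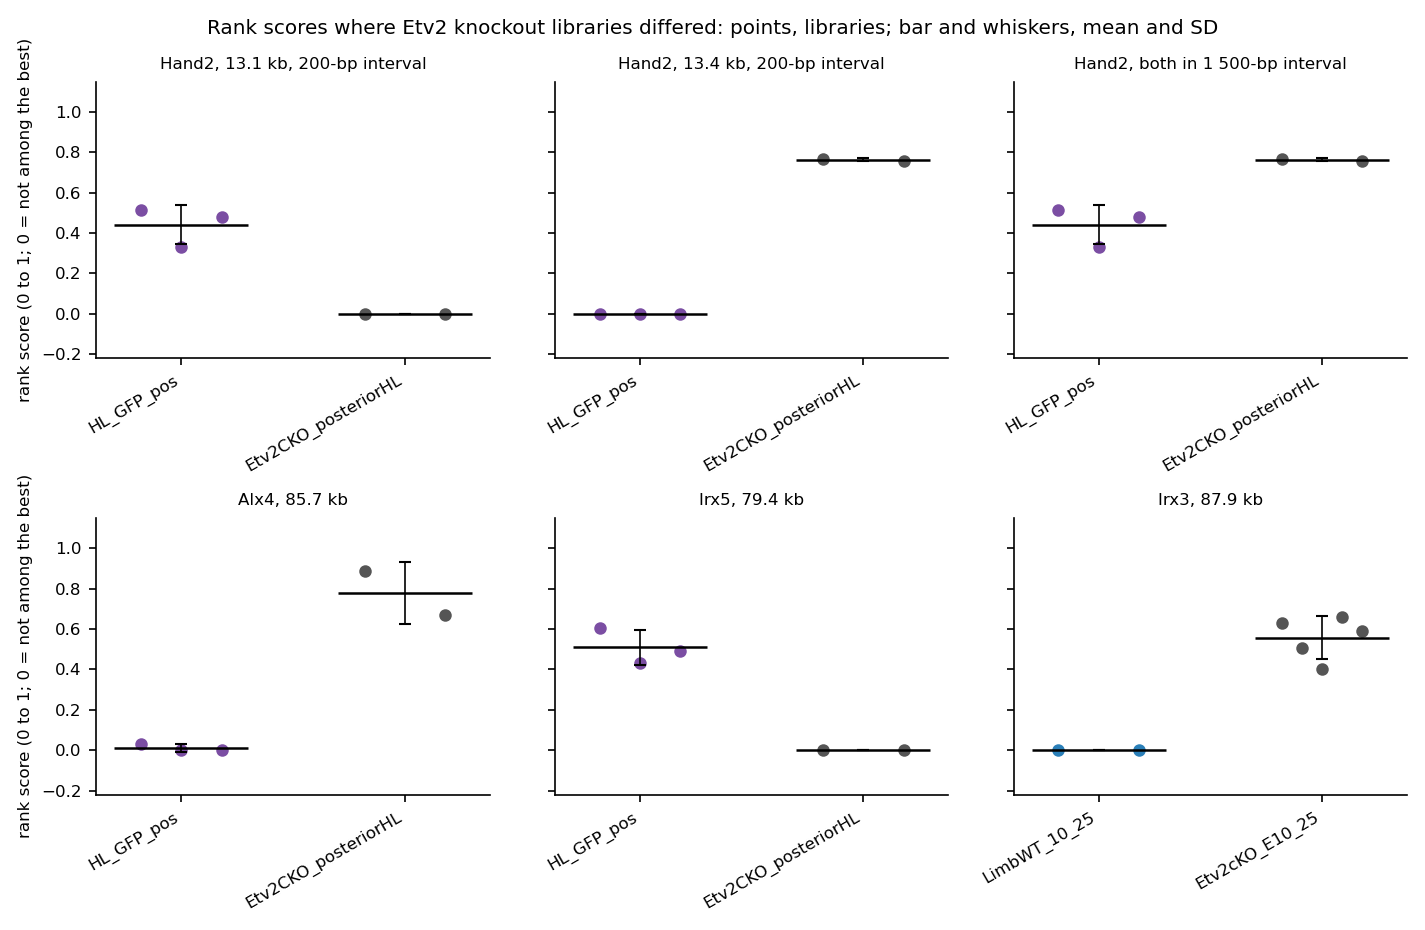
Rank scores (y axis, 0 to 1) of the intervals called between HL_GFP_pos and Etv2CKO_posteriorHL (lists of 25000 summits) and between LimbWT_10_25 and Etv2cKO_E10_25 (15000 summits), by group (x axis), with points for libraries and the bar and whiskers for the mean and SD. Hand2 3′ interval 1 and the joined Hand2 interval of 500 bp are shown beside the called intervals and were not called. The 2 Hand2 intervals are mirror images, and joined into 1 interval of 500 bp both groups are above 0.3.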

How the data were processed

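ATAC-seq was analysed in 32 libraries. The authors aligned reads to mm10 with Bowtie2 2.2.4 (per the submitters' processing notes), removed duplicates, kept unique alignments, shifted read starts for Tn5 and called peaks per library with MACS2 (version not given in the sources used here). Each deposited list gives summit positions with a −log10 q-value, which was used only to rank summits within a library. Deeper libraries yield longer lists, and no read counts or depths are given.

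Summits outside the mitochondrial genome were merged into 200-bp intervals, and intervals listed in at least 2 libraries were annotated on GRCm38.p6 with GENCODE. A library lists an interval when a summit lies within 200 bp of its centre. The rank score was (N + 1 − rank)/N, with N = 30000, 25000 or 15000. Rank scores were fitted with limma 3.58.1 in R 4.3.3, with 4 groups jointly in the overexpression set and 2 groups otherwise, and p-values were adjusted by Benjamini-Hochberg over all intervals or genes at a threshold of 0.05. An interval entered a fit when it scored above 0 in at least as many libraries as the smallest group held. An interval high in 1 group alone could therefore enter. The Hand2 interval upstream, Hand2 3′ interval 2 and the Irx5 and Irx3 downstream intervals entered only through the group where they were high. The Pax9 3′ interval likewise entered through the A libraries, and its P libraries alone would not have sufficed. The Alx4 downstream interval entered through the knockout, and HL_GFP_pos alone would not have sufficed. Gene scores sum the intervals of a gene. The scripts were tested on simulated data. Intervals named were, per gene, the best-ranked one within 1 kb of a start, the distal one with the best median control rank, those past the threshold, and a few named as chosen after their values were seen (the neighbours at Hand2, and single intervals at Tbx2, Tbx3 and Zbtb16). The members and lists were chosen with earlier results of these data known. Intervals of 500 bp were added after seeing the data. The other alternatives were whole lists, 0.5 of the equal length, summits within 100 bp, 25 kb around a gene, only the groups compared, the number in the labels as a block, and leaving out each library.

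For FL_GFP_pos and HL_GFP_pos, deviations from the group means of libraries with the same number in the labels correlated at 0.21 to 0.48 in 3 pairs, and at -0.305 to 0.0932 in the 6 other combinations. The main fit did not pair these libraries, and the shared number entered as a block only in an alternative fit.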

Additional observations from a re-analysis of the deposited data

Results flagged for a closer look

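Of 19 groups of values tested, 2 had a library far from the others, and chance alone sets such a library apart in about 1 in 20 groups. The Irx3 gene score was 0.170 in WT_Control_P replicate 1, whereas the other 3 WT_Control_P libraries were at 0 to 0.0197. Summits of the 8 genes numbered 10.24 per 10000 summits in Etv2cKO_E10_25 replicate 2, which had the shortest list of its group with 15626 summits, whereas the other 4 libraries were at 14.6 to 15.7.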

How the results depend on the processing

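The counts of called intervals among the 8 genes were small and moved with the settings, as did the calls over all intervals or genes, which follow each count here. In the whole lists the counts were 2 for control A against P (of 2522), 1 for Etv2_OE against control in A (of 76), 5 for HL_GFP_pos against the knockout (of 1675), 3 for control gene scores (of 1051) and 2 for presence (of 1641). With 0.5 of the equal length they were 0 for control A against P (of 221), 0 for Etv2_OE A against P (of 182), 1 for HL_GFP_pos against the knockout (of 568) and 0 at E10.25 (of 232). With summits within 100 bp they were 1 for Etv2_OE A against P (of 354) and 1 for HL_GFP_pos against the knockout (of 1161), and with 500-bp intervals 1 for Etv2_OE A against P (of 873). A fit of only the groups compared gave 0 in Etv2_OE (of 453). Gene scores within 25 kb gave 1 call, Pax9, in controls (of 61) and 1 in Etv2_OE (of 42).

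A and P libraries share only a number in the labels. Deviations from the group means of same-numbered libraries correlated at 0.00424 to 0.0423 over 7 pairs, against -0.0287 to 0.0218 over 18 others. By these deviations, 11 of the 14 libraries correlated best with the library of their own number. With this number as a replicate block, Etv2_OE A against P kept 1 of its calls, Pax9 (adjusted p = 0.0381), the Hand2 interval was lost, and the calls over all intervals went from 627 to 128. Control A against P stayed at 1 call, Pax9 (adjusted p = 0.0198), of 328 over all intervals, and the block changed no other call among the 8 genes. Calls over all genes went from 63 to 16 in controls and from 55 to 1 in Etv2_OE, and those for the change between genotypes from 22 to 5. With the shared number of FL_GFP_pos and HL_GFP_pos as a block, 0 intervals passed.

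Leaving out 1 library at a time gave 1 to 1 calls for Etv2_OE A against P, 0 to 2 for HL_GFP_pos against the knockout, 0 to 1 at E10.25, 0 to 1 for Etv2_OE gene scores (1, Pax9, without WT_Control_P replicate 4) and 1 to 2 for presence (2 without WT_Control_P replicate 4). The Pax9 interval passed in 19 of 20 alternatives in controls (adjusted p = 0.000971 to 0.437) and in 17 of 20 in Etv2_OE (adjusted p = 0.0027 to 0.203), and the Hand2 interval upstream in 2 of 16 (adjusted p = 0.0102 to 0.241). Of the knockout calls, Hand2 3′ interval 2 passed in 3 of 5 alternatives (adjusted p = 0.0243 to 0.0708), the Alx4 interval in 1 of 8 (adjusted p = 0.0291 to 0.388), the Irx5 interval in 1 of 7 (adjusted p = 0.0247 to 0.426) and the Irx3 interval in 4 of 10 (adjusted p = 0.0187 to 0.679). These tallies leave out intervals of 500 bp and alternatives in which the interval no longer entered the test. In all, there were 21 alternatives each for control and Etv2_OE A against P, 9 for HL_GFP_pos against the knockout and 11 at E10.25.

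List length moved the direction of calls over all intervals. The share of calls higher in the first group went from 44.9% to 18.8% for control A against P in the whole lists, from 47.8% to 27.1% for Etv2_OE, from 66.7% to 19.7% and from 53.3% to 9.77% for Etv2_OE against control in A and P, from 50% to 64.9% for the change between genotypes, from 42.1% to 70.7% for FL_GFP_pos against HL_GFP_pos, from 29.3% to 46% for HL_GFP_pos against the knockout and from 11.6% to 2.28% at E10.25. The cause of these shifts was not tested. Depth is unknown, so a summit missing from a list is not evidence of closed chromatin.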
